A study of Mus musculus with 18 samples.

Results

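The clustered histone genes encode the linker histone H1 and the core histones H2a, H2b, H3 and H4. They were taken as every row of the count files whose symbol starts with Hist1h, Hist2h, Hist3h or Hist4h and that had at least 1 count in any library. There were 64 such genes among 43280 rows, of which 5 were H1, 17 H2a, 19 H2b, 10 H3 and 13 H4 genes. By the numeral in the symbol, 54 belong to the Hist1 cluster, 6 to Hist2, 3 to Hist3 and 1 to Hist4. A further 6 rows with such symbols (Hist2h2aa1, Hist2h2aa2, Hist2h3c1, Hist2h3b, Hist1h1t and Hist1h2aa) had no count in any library.

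The 18 RNA-seq libraries come from mouse cells of the T lineage that had been sorted, and they form 4 groups. Levels are given as CPM, the count of a gene over the TMM-scaled total of its library. The iRTE group (n = 5) holds CD8+ cells differentiated from induced pluripotent stem cells of the source named Pmel iPSC. The Artificial CD8 group (n = 5) holds CD8+ cells made from that source on OP9-DL1, a stromal cell line that carries a Notch ligand. The CD4+CD8+ group (n = 3) holds CD4+CD8+ cells made from that source on OP9-DL1. The splenic CD8 group (n = 5) holds naive CD8+ cells taken ex vivo from the spleen of transgenic mice. By elimination, iRTE should be the CD8+ group cultured in a 3D thymic system according to the design text, although the growth protocol of each sample, splenic samples included, names OP9-DL1. The sort took cells by CD4, CD8, CD45 and T-cell receptor staining, and those with NK1.1, TCRgd or CD11c were gated out. The labels give neither age nor the number of animals or cultures, so a p-value speaks of the spread among these libraries, which may be technical.

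Most clustered histone genes are transcribed in S phase, when new DNA has to be packaged. Their mRNAs end in a stem-loop in place of a poly(A) tail, and the stem-loop binding protein Slbp together with the U7 snRNP makes that end. Linker H1 binds the DNA that enters and leaves the nucleosome, whereas the core histones form the nucleosome itself. Some clustered genes also yield polyadenylated transcripts when cells leave the cycle. Developing thymocytes pass through phases of rapid division, and naive T cells of the spleen rest.

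The 5 linker H1 promoters are shown because these variants differed from each other in how far they moved between groups, and those of Hist2h2ac and Hist3h2a because these H2a genes moved in opposite directions against splenic cells. Each is the 250 bases before the transcript start, taken from RefSeq on build GRCm38.p6 and written 5′ to 3′ on the gene's strand. They lie at chr13:23763418-23763667 (plus strand) for Hist1h1a, chr13:21780626-21780875 (minus) for Hist1h1b, chr13:23554782-23555031 (plus) for Hist1h1d, chr13:23622559-23622808 (minus) for Hist1h1e, chr13:23738557-23738806 (plus) for Hist1h1c, chr3:96220881-96221130 (minus) for Hist2h2ac and chr11:58954435-58954684 (plus) for Hist3h2a. Capitals mark matches on either strand to the H1 box, which reads AAACACA, to the box that reads CCAAT, to the TATA motif, searched as TATANA, and to the octamer, which reads ATGCAAAT; where 2 matches overlap, the capitals run together.
Hist1h1a: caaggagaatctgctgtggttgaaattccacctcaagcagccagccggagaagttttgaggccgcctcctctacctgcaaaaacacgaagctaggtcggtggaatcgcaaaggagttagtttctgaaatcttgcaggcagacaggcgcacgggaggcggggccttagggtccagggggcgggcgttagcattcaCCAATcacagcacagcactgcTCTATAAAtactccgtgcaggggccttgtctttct
Hist1h1b: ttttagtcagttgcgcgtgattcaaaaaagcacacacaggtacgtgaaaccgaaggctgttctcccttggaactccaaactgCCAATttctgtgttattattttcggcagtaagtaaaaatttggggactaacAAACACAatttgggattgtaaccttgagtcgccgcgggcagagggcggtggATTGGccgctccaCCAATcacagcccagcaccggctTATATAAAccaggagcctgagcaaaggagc
Hist1h1d: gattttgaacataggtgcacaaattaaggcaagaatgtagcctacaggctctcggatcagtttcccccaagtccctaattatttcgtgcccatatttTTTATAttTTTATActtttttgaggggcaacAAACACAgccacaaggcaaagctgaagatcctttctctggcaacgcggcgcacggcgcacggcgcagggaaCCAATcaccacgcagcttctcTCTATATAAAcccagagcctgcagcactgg
Hist1h1e: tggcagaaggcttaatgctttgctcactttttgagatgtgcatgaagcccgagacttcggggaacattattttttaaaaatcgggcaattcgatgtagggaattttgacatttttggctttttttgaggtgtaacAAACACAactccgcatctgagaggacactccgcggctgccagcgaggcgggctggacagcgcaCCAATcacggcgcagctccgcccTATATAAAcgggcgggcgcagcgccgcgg
Hist1h1c: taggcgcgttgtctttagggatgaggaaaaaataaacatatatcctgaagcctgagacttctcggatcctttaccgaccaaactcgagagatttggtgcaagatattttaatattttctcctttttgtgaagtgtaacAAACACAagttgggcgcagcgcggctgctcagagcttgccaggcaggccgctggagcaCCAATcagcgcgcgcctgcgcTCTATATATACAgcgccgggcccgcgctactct
Hist2h2ac: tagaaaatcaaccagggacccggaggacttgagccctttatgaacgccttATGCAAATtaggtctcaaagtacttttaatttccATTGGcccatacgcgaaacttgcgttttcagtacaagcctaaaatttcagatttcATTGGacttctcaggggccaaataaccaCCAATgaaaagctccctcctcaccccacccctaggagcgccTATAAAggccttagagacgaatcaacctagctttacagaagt
Hist3h2a: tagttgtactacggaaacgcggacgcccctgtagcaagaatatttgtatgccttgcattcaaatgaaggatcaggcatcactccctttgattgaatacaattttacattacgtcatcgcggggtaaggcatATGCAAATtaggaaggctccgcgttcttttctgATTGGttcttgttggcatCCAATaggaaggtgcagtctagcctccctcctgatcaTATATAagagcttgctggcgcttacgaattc

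The H1 box stood between 112 and 122 bases before the start in Hist1h1b, Hist1h1c, Hist1h1d and Hist1h1e, and these letters were not in the window of Hist1h1a. All 5 linker H1 windows held a CCAAT match within 51 to 56 bases of the start and a TATANA match nearer to it. Promoters were listed for 56 of the 64 genes, and 1 of them had more than 1 listed. Hist1h2ao and Hist1h2ap were matched to the same RefSeq gene, H2ac23, so the same promoter is counted for both. The H1 box was in 80% of the 5 linker H1 windows and in 6.25% of all 32851 RefSeq promoters. CCAAT was in 82.1% of the 56 histone genes, against 33.8% of all promoters, and in 25% of the 12 H4 genes. The octamer was in 40% of the 15 H2a genes and 43.8% of the 16 H2b genes, in none of the H1, H3 and H4 genes, and in 1.6% of all promoters. Hist2h2ac and Hist3h2a both hold it, at 200 and 119 bases before the start. A match is a description of the sequence and not a site shown to be used.

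Total counts per library ran from 11691286 to 16533373 in iRTE, 15953388 to 19305751 in Artificial CD8, 11747367 to 12208210 in CD4+CD8+ and 11132768 to 17671852 in splenic CD8. Histone genes took 1146 to 3140, 4792 to 8057, 2105 to 3334 and 627 to 1129 of these counts in the same order, so precision is limited by counting for most single genes. The labels did not say whether poly(A)+ RNA was selected. A list of 17 RNAs without a poly(A) tail, 16 of them in the files, summed to 1.18 to 5.88 CPM over all libraries. Most clustered histone mRNAs lack such a tail too, so their counts, class sums and shares may miss part of them. How much was missed was not tested. Cd4 lay between 155 and 263 CPM in CD4+CD8+ and at or below 9.18 CPM in the CD8+ groups, while Cd8b1 was at least 818 CPM in every library. Summed stromal markers reached 46.8 and 70.9 CPM in CD4+CD8+ 2 and 3, against 1.38 CPM in CD4+CD8+ 1, and 17.4 to 26.4 CPM in Artificial CD8. In Artificial CD8 most of this sum was Pdgfrb, at 14.4 to 23.4 CPM, and no other gene of the list passed 3.145 CPM. In CD4+CD8+ other genes were raised, with up to 21.5 CPM for Fn1 and 12.3 CPM for Col1a2. Of the NK cell list, Gzma, which cytotoxic CD8+ cells also express, was at 848 to 1043 CPM in Artificial CD8. Ncr1, Klrb1c, Klra8 and Klra4 were at most 1.006 CPM there. Tyrobp, at 1.48 to 3.25 CPM, and Fcer1g, at 2.84 to 4.27 CPM, lay above splenic CD8, at 0.422 to 1.44 and 0.3515 to 0.905 CPM. Summed erythroid markers were at most 2.68 CPM in every cultured library, against 170 to 219 CPM in splenic CD8. The part of stromal and erythroid RNA in the histone values was not tested.

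Total histone RNA was lowest in splenic cells, with lower mean sums of H1, H2a, H3 and H4 there, while the H2b means of the 4 groups lay close together. Summed over all 64 genes, CPM were 192, 150, 255, 71.4 and 201 in iRTE 1 to 5, and 411, 396, 284, 374 and 415 in Artificial CD8 1 to 5. They were 288, 176 and 196 in CD4+CD8+ 1 to 3, and 61.0, 51.7, 51.6, 56.6 and 53.2 in splenic CD8 1 to 5. Every library of the 3 cultured groups lay above every splenic library, with iRTE 4 the nearest. The mean sum was 3.17 times the splenic mean in iRTE, 6.86 times in Artificial CD8 and 4.02 times in CD4+CD8+. In bulk samples, fewer cells that express a gene and less RNA per cell cannot be told apart.

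Linker H1 summed to 74.0 ± 36.6 CPM in iRTE, 154 ± 22.6 in Artificial CD8, 65.1 ± 10.1 in CD4+CD8+ and 13.3 ± 1.56 in splenic CD8 (mean ± SD, n = 5, 5, 3 and 5, as for all sums below). H4 summed to 44.3 ± 18.6 CPM in iRTE, 114 ± 12.4 in Artificial CD8, 61.2 ± 22.5 in CD4+CD8+ and 12.6 ± 1.92 in splenic CD8. No cultured library overlapped the splenic range in either class. H2a summed to 35.0 ± 24.4 CPM in iRTE, 83.6 ± 15.8 in Artificial CD8, 67.3 ± 21.2 in CD4+CD8+ and 12.6 ± 1.03 in splenic CD8. H3 summed to 8.45 ± 5.24 CPM in iRTE, 9.46 ± 2.47 in Artificial CD8, 8.47 ± 3.47 in CD4+CD8+ and 1.46 ± 0.384 in splenic CD8. In these classes iRTE 4, at 6.42 CPM for H2a and 1.25 CPM for H3, was the only cultured library within or below the splenic range. H2b summed to 12.1 ± 4.78 CPM in iRTE, 15.1 ± 3.61 in Artificial CD8, 18.1 ± 3.11 in CD4+CD8+ and 14.9 ± 0.942 in splenic CD8. The iRTE and Artificial CD8 ranges overlapped the splenic one for H2b, and the 3 CD4+CD8+ libraries lay just above it, at 15.7 to 21.6 CPM against 13.3 to 15.7 CPM. H2b thus made up 7.14% ± 1.71 of the histone sum in iRTE, 3.96% ± 0.453 in Artificial CD8 and 8.39% ± 1.12 in CD4+CD8+, against 27.3% ± 2.33 in splenic CD8.

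**Figure D1:**
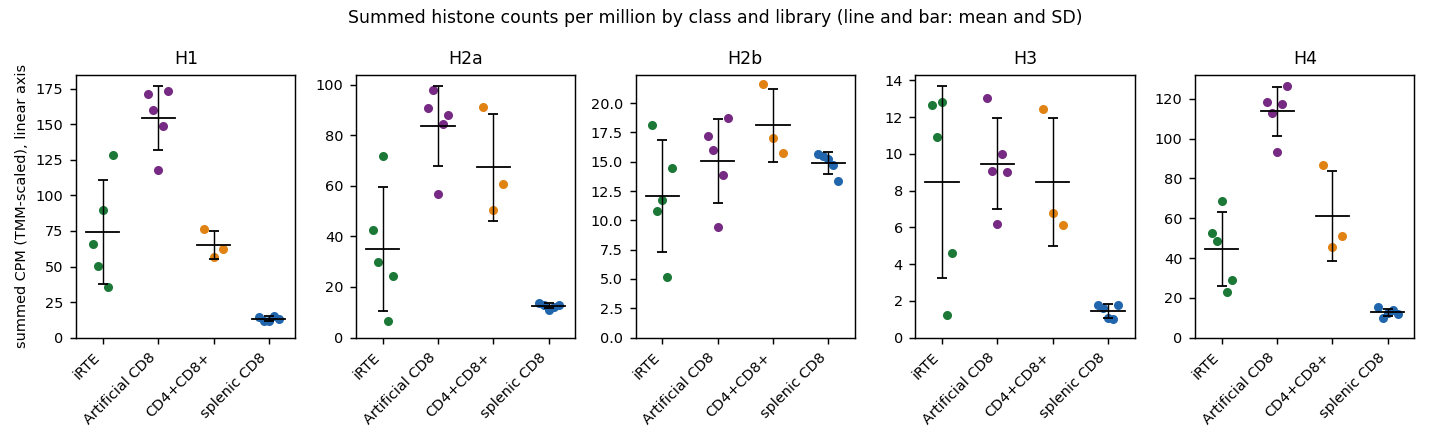
Summed TMM-scaled CPM of the histone genes of each class in every library, on linear axes that differ between panels; points are libraries, lines are group means and bars are SD (n = 5, 5, 3 and 5). The mean of splenic CD8 is lowest for H1, H2a, H3 and H4, though iRTE 4 lies below the splenic libraries for H2a and within their range for H3. Artificial CD8 means in these classes were 154, 83.6, 9.46 and 114 CPM, while the H2b means lie between 12.1 and 18.1 CPM in all 4 groups.

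The sums of single classes rested on a few genes. Without Hist1h4d, the highest member of H4, the H4 mean was 6.83 CPM in iRTE, 14.9 in Artificial CD8, 12.7 in CD4+CD8+ and 6.40 in splenic CD8. Without Hist1h2ae, the highest of H2a, that class averaged 17.9 CPM in iRTE, 45.9 in Artificial CD8, 28.1 in CD4+CD8+ and 11.3 in splenic CD8. Without Hist2h2be, the highest of H2b, that class averaged 10.7 CPM in iRTE, 13 in Artificial CD8, 14.3 in CD4+CD8+ and 7.67 in splenic CD8. The splenic mean was then the lowest for H2b too. Library iRTE 4 had the lowest sum of its group in every class, near iRTE 5 for H4 and iRTE 2 for H1. Its summed S phase genes were 1724 CPM, against 3863 to 4313 CPM in the other iRTE libraries and 1382 to 1490 CPM in splenic CD8. Its summed G2 and mitosis genes were 272 CPM, within the splenic range of 217 to 284 CPM and far under the 1347 to 1658 CPM of the other iRTE libraries.

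Relative to splenic cells, 24 genes were higher and 3 lower in iRTE, 24 were higher and 4 lower in Artificial CD8, and 21 were higher and 2 lower in CD4+CD8+. A call means an adjusted p (Benjamini-Hochberg over 13922 genes) below 0.05 by the quasi-likelihood F test of edgeR. Of the 64 genes, 42 passed the filter on low counts and were tested, while the other 22 reached at most 1.05 CPM in any library. A gene can pass that filter through the group where it is high, so counts over the 42 describe them and support nothing more. As background, 29.2% of the whole set tested was higher and 29% lower in iRTE than in splenic CD8, 30.3% higher and 30.2% lower in Artificial CD8, and 28.9% higher and 27.4% lower in CD4+CD8+. The shares of tested histone genes were 57.1% and 7.14%, 57.1% and 9.52%, and 50% and 4.76% in the same order. The median log2 fold change of the 42 genes was 1.95 in iRTE, 2.43 in Artificial CD8 and 2.02 in CD4+CD8+, beside -0.05, -0.03 and -0.03 over all genes. The 3 comparisons share the splenic libraries and are not independent.

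The count for iRTE depended on the samples and tool. It was 29 higher without iRTE 4, 11 with iRTE 4 and 5 alone, 14 by limma-voom and 7 in a fit of iRTE and splenic libraries alone. In a fit of the 2 groups alone, 14 genes were higher in CD4+CD8+ than in splenic CD8.

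The calls were also counted by cluster. In the Hist1 cluster, 24 of 35 tested genes were higher in iRTE than in splenic CD8, 23 of 35 in Artificial CD8 and 20 of 35 in CD4+CD8+, and 0 of 35 were lower in any of these comparisons. In the Hist2, Hist3 and Hist4 clusters, 3 of 7 tested genes were lower in iRTE and 0 higher, 4 were lower and 1 higher in Artificial CD8, and 2 were lower and 1 higher in CD4+CD8+. The gene that was higher was Hist2h2ac, and 1 of those lower in CD4+CD8+, Hist4h4, did not hold when single libraries were left out. Over the whole set of 13922 genes, lower calls took 29% in iRTE, 30.2% in Artificial CD8 and 27.4% in CD4+CD8+. Higher calls took 29.2%, 30.3% and 28.9% in the same order. The 2 of 7 lower in CD4+CD8+ is near that background. With only 7 genes, whether the counts for iRTE and Artificial CD8 depart from it was not tested. The summed CPM of these smaller clusters was 10.5 ± 3.29 in iRTE, 14.3 ± 2.71 in Artificial CD8 and 15.8 ± 1.52 in CD4+CD8+, against 22.2 ± 1.47 in splenic CD8. No cultured library reached the splenic range of 20.7 to 24.5 CPM. The smaller clusters gave 6.99% ± 3.26 of the histone sum in iRTE, 3.81% ± 0.425 in Artificial CD8 and 7.37% ± 1.16 in CD4+CD8+, against 40.7% ± 2.78 in splenic CD8. Against splenic cells, 16 genes were higher in all 3 cultured groups, Hist3h2a was lower in all 3, and 6 genes (Hist2h4, Hist1h4h, Hist1h2bg, Hist1h2be, Hist1h2bc and Hist1h4c) passed in none. The share of all genes called alike in all 3 comparisons was not taken, so these counts describe the histone genes only.

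**Figure D2:**
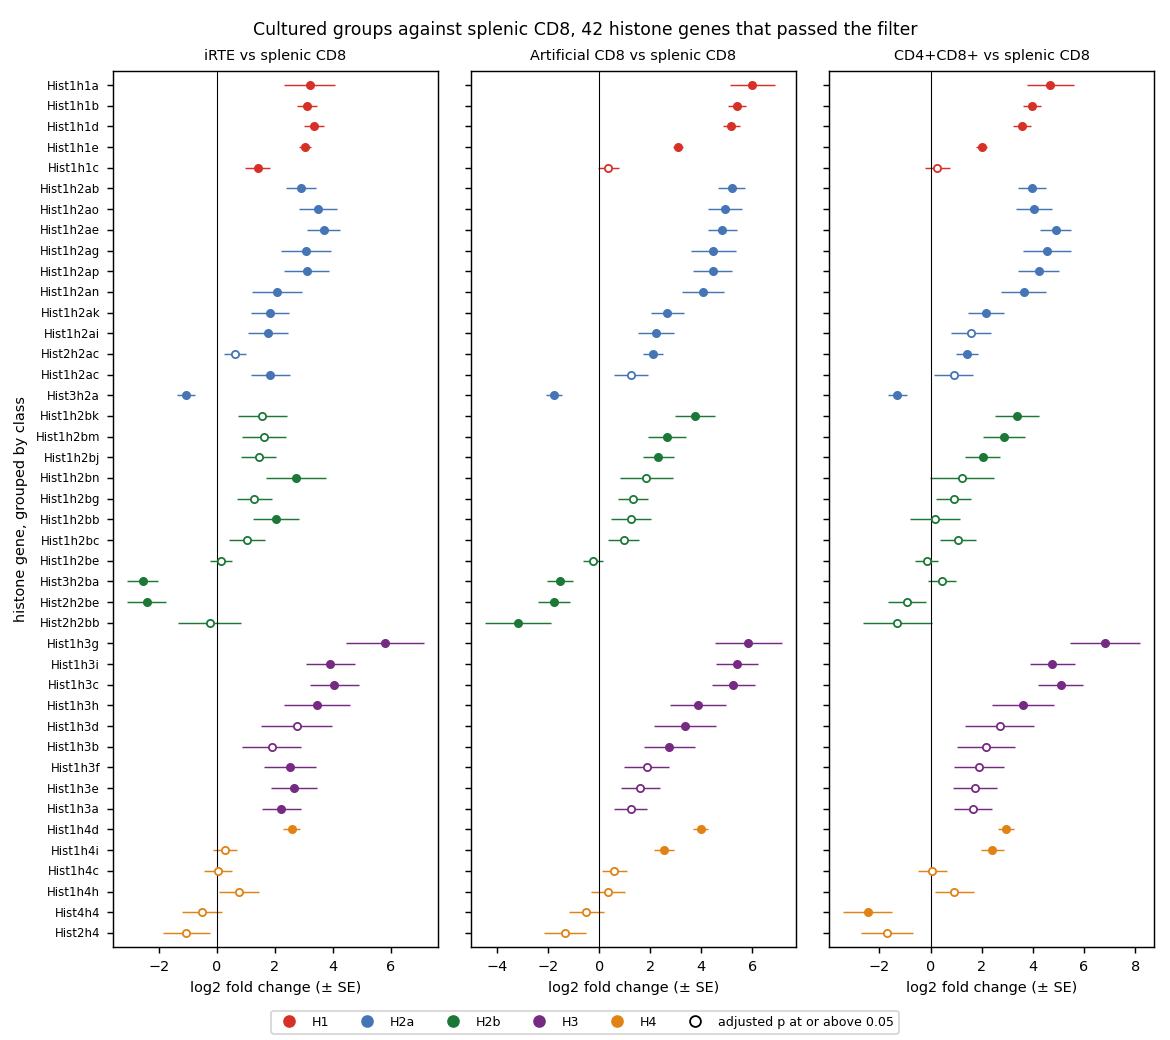
Fitted log2 fold changes (± SE) of the 42 tested histone genes in iRTE, Artificial CD8 and CD4+CD8+ against splenic CD8, grouped by class, with a log2 axis of its own in each panel; filled points have an adjusted p below 0.05 (edgeR). Among filled points, those left of 0 are genes of the Hist2, Hist3 and Hist4 clusters, such as Hist3h2a at -1.06, -1.78 and -1.30.

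The linker H1 variants differed in size of change. Hist1h1b, the variant H1f5 in RefSeq, which is typical of dividing cells, had 16.5, 12.6, 27.3, 5.92 and 25.8 CPM in iRTE 1 to 5 and 95.6, 92.8, 61.1, 79.0 and 102 CPM in Artificial CD8 1 to 5. It had 36.2, 27.1 and 32.9 CPM in CD4+CD8+ 1 to 3 and 2.59, 2.05, 1.41, 2.29 and 1.78 CPM in splenic CD8 1 to 5. The Artificial CD8 libraries were all highest and the splenic ones all lowest, with no overlap between either and any other group. The log2 fold change against splenic CD8 was 3.10 ± 0.33 in iRTE (edgeR adjusted p = 3.04e-07), 5.39 ± 0.35 in Artificial CD8 (edgeR adjusted p = 2.79e-10) and 3.97 ± 0.35 in CD4+CD8+ (edgeR adjusted p = 3.38e-08). Values after ± beside log2 fold changes are SE of the fit.

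Hist1h1a (H1f1), a variant of few tissues that include thymus and spleen, had 0.575, 0.533, 4.25, 0.187 and 0.384 CPM in iRTE and 11.03, 9.87, 3.55, 8.63 and 7.63 CPM in Artificial CD8. It had 5.28, 2.60 and 1.94 CPM in CD4+CD8+, and 0, 0.0708, 0.211, 0.302 and 0 CPM in splenic CD8, where no library held more than 5 counts. Its log2 fold change against splenic CD8 was 6.0 ± 0.89 in Artificial CD8 (edgeR adjusted p = 1.08e-05) and 4.68 ± 0.92 in CD4+CD8+ (edgeR adjusted p = 0.000297), sizes that such low counts leave loose, since both came out at 6.74 and 5.42 without splenic CD8 4. In iRTE it was 3.20 ± 0.88 (edgeR adjusted p = 0.00462), but 1.71 (adjusted p = 0.0527) without iRTE 3, which held most of the counts. Hist1h1d (H1f3) averaged 4.91 ± 2.15 CPM in iRTE, 17.5 ± 2.43 in Artificial CD8, 5.80 ± 1.02 in CD4+CD8+ and 0.473 ± 0.140 in splenic CD8, and was 3.34, 5.18 and 3.58 higher on the log2 scale in the 3 cultured groups than in splenic CD8 (edgeR adjusted p at most 1.09e-07).

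Hist1h1e (H1f4), a variant found in most cell types, had 31.2, 25.7, 42.3, 19.6 and 44.0 CPM in iRTE and 35.4, 30.5, 30.3, 36.4 and 37.3 CPM in Artificial CD8. It had 17.8, 14.0 and 15.7 CPM in CD4+CD8+ and 3.73, 3.4, 3.87, 4.34 and 4.50 CPM in splenic CD8. The iRTE and Artificial CD8 libraries overlapped, and all of them lay above CD4+CD8+. The log2 fold change against splenic CD8 was 3.04 ± 0.20 in iRTE (edgeR adjusted p = 7.11e-10), 3.10 ± 0.20 in Artificial CD8 (edgeR adjusted p = 3.43e-10) and 2.00 ± 0.22 in CD4+CD8+ (edgeR adjusted p = 4.62e-07).

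Hist1h1c (H1f2), which is known to keep being made outside S phase from polyadenylated RNA, moved least. It had 12.1, 7.72, 10.3, 7.79 and 50.6 CPM in iRTE, 10.5, 6.72, 8.64, 8.63 and 8.40 CPM in Artificial CD8, 10.03, 7.62 and 6.64 CPM in CD4+CD8+ and 7.88, 5.38, 6.12, 7.48 and 6.62 CPM in splenic CD8. Apart from iRTE 5, which stood far above, the ranges of the 4 groups overlapped. It was higher in iRTE by 1.40 ± 0.42 on the log2 scale (edgeR adjusted p = 0.00736), and by 0.50 (adjusted p = 0.0473) without iRTE 5. The changes of 0.35 ± 0.41 in Artificial CD8 and 0.27 ± 0.48 in CD4+CD8+ did not pass (edgeR adjusted p = 0.47 and 0.64).

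**Figure D3:**
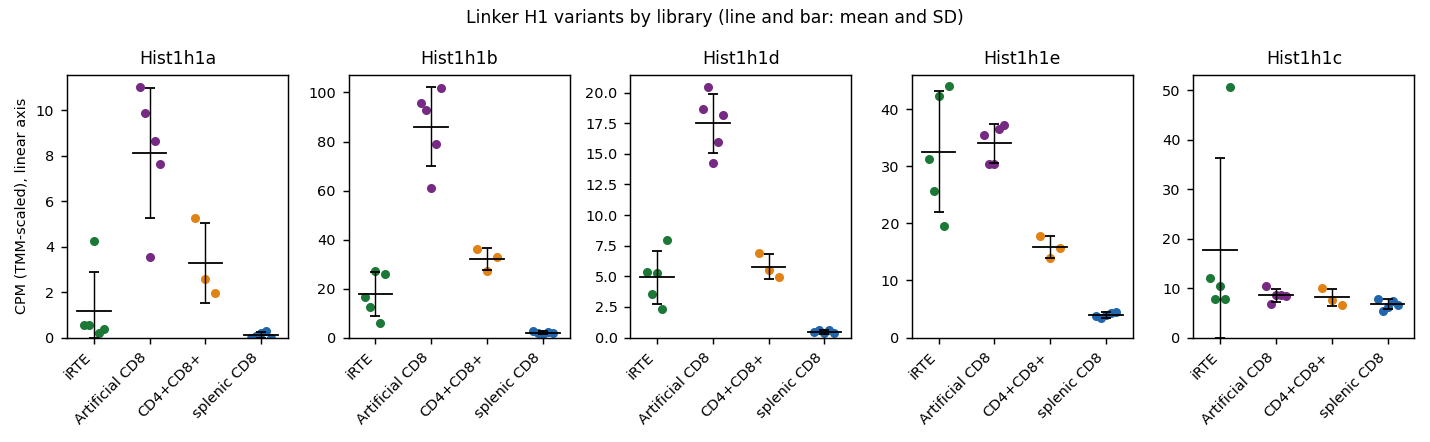
TMM-scaled CPM of the 5 linker H1 genes in every library, on linear axes that differ between panels; points are libraries, lines are means and bars are SD (n = 5, 5, 3 and 5). Hist1h1b averaged 86.0 CPM in Artificial CD8 and 2.02 CPM in splenic CD8, whereas Hist1h1c lay at 5.38 to 12.1 CPM in all libraries but iRTE 5.

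The make-up of the linker H1 counts therefore differed between groups. Hist1h1b gave 23.5% ± 5.36 of the H1 counts in iRTE, 55.5% ± 2.96 in Artificial CD8, 49.4% ± 3.10 in CD4+CD8+ and 15.2% ± 2.64 in splenic CD8. Hist1h1e gave 47.0% ± 7.79 in iRTE, 22.3% ± 2.76 in Artificial CD8, 24.4% ± 0.985 in CD4+CD8+ and 30% ± 3.29 in splenic CD8. Hist1h1c gave 21.3% ± 10.7 in iRTE, 5.66% ± 1.21 in Artificial CD8, 12.4% ± 1.5 in CD4+CD8+ and 50.3% ± 2.62 in splenic CD8. The variant with most H1 counts was Hist1h1e in iRTE 1 to 4 and Hist1h1c in iRTE 5, Hist1h1b in all Artificial CD8 and CD4+CD8+ libraries, and Hist1h1c in all splenic libraries. Shares between variants follow transcript length as well as RNA number, so only their differences between groups can be read. They rest on 564 to 2014 H1 counts per library in iRTE, 1992 to 3360 in Artificial CD8, 678 to 882 in CD4+CD8+ and 156 to 271 in splenic CD8.

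**Figure D4:**
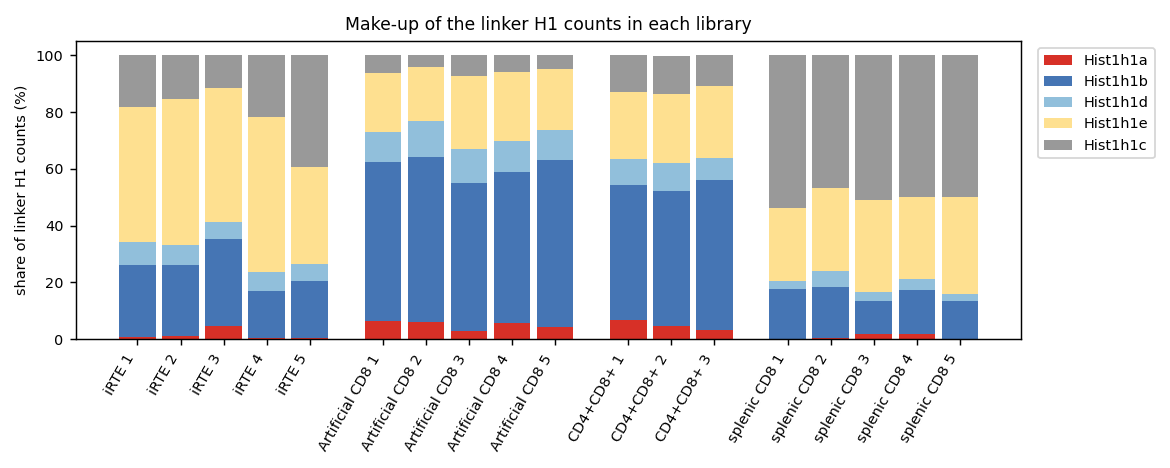
Share of the linker H1 counts (in percent) taken by each of the 5 variants in every library. Hist1h1b took 51.9% to 58.8% in Artificial CD8 and 11.8% to 17.8% in splenic CD8, where Hist1h1c took 46.6% to 53.9%.

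Among the H2a genes, which encode the histone that pairs with H2b, the 3 of highest mean were Hist1h2ae, Hist1h2ab and Hist3h2a. Hist1h2ae had 15.3, 12.3, 48.0, 2.49 and 7.36 CPM in iRTE, 41.0, 48.5, 24.2, 37.5 and 37.0 CPM in Artificial CD8, 54.1, 27.6 and 36.0 CPM in CD4+CD8+ and 1.40, 1.13, 0.844, 1.51 and 1.70 CPM in splenic CD8. The cultured groups overlapped each other and none overlapped splenic CD8. The log2 fold change against splenic CD8 was 3.68 ± 0.57 in iRTE (2.81 without iRTE 3), 4.83 ± 0.58 in Artificial CD8 and 4.89 ± 0.61 in CD4+CD8+ (edgeR adjusted p at most 2.17e-05). Hist1h2ab averaged 4.23 ± 2.69 CPM in iRTE, 20.6 ± 4.34 in Artificial CD8, 8.81 ± 1.73 in CD4+CD8+ and 0.547 ± 0.205 in splenic CD8, with 0.374 CPM in iRTE 4 within the splenic range. Its log2 fold changes against splenic CD8 were 2.89, 5.19 and 3.96 in the same order (edgeR adjusted p at most 8.83e-05). Of 11 tested H2a genes, 9 were higher and 1 lower in iRTE, 9 and 1 in Artificial CD8 and 8 and 1 in CD4+CD8+. Among all genes tested, 29.2%, 30.3% and 28.9% were higher and 29%, 30.2% and 27.4% lower in the same order.

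H3 and H4 form the tetramer at the centre of the nucleosome. Of 9 tested H3 genes, 7 were higher in iRTE than in splenic CD8, 6 in Artificial CD8 and 4 in CD4+CD8+, and 0 were lower. Among all genes tested, 29.2%, 30.3% and 28.9% were higher in the same order. With only 9 genes, whether the H3 counts depart from these shares was not tested. Hist1h3c averaged 1.009 ± 0.677 CPM in iRTE, 2.30 ± 0.654 in Artificial CD8, 2.05 ± 0.773 in CD4+CD8+ and 0.0490 ± 0.0510 in splenic CD8, with log2 fold changes of 4.04, 5.25 and 5.08 (edgeR adjusted p at most 0.00047). Hist1h3i changed by 3.90, 5.41 and 4.76 (edgeR adjusted p at most 0.000597), and by 4.95, 6.47 and 5.81 without splenic CD8 5, since its splenic level rests on 2 libraries with any count. Hist1h3e was higher by 2.66 ± 0.79 in iRTE (edgeR adjusted p = 0.00733), yet iRTE 4 and 5 held only 0.0623 and 0.896 CPM against 1.68 to 3.54 CPM in iRTE 1 to 3. With iRTE 4 and 5 alone the change was 0.68 (adjusted p = 0.581). Hist1h3g had no count in any splenic library. Its means of 0.476 ± 0.558 CPM in iRTE, 0.480 ± 0.230 in Artificial CD8 and 0.954 ± 0.403 in CD4+CD8+ were at least 2.33-fold, 2.35-fold and 4.67-fold higher than a floor of 3 counts per splenic library. The iRTE mean rests mostly on iRTE 3, at 1.42 CPM, while iRTE 4 and 5 held 0 and 0.128 CPM, under that floor.

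Of the H4 genes, Hist1h4d had 42.5, 42.4, 61.1, 20.8 and 20.5 CPM in iRTE, 99.8, 97.6, 80.9, 103 and 114 CPM in Artificial CD8, 70.8, 35.5 and 39.3 CPM in CD4+CD8+ and 7.99, 5.10, 6.33, 6.999 and 4.67 CPM in splenic CD8. Artificial CD8 was highest and splenic CD8 lowest, each without overlap, and iRTE overlapped CD4+CD8+. The log2 fold change against splenic CD8 was 2.58 ± 0.29 in iRTE, 3.98 ± 0.30 in Artificial CD8 and 2.95 ± 0.31 in CD4+CD8+ (edgeR adjusted p at most 5.11e-07). Hist1h4i had 2.01, 0.977, 2.83, 0.436 and 3.46 CPM in iRTE, 12.2, 8.82, 7.22, 10.4 and 7.94 CPM in Artificial CD8, 10.8, 6.20 and 8.59 CPM in CD4+CD8+ and 2.27, 0.991, 1.76, 1.33 and 1.61 CPM in splenic CD8. Its iRTE libraries overlapped the splenic ones, and Artificial CD8 and CD4+CD8+ lay above both. Against splenic CD8 it was 2.54 ± 0.41 higher in Artificial CD8 and 2.41 ± 0.45 higher in CD4+CD8+ on the log2 scale (edgeR adjusted p = 3.31e-05 and 0.000176), with 0.28 ± 0.41 in iRTE (edgeR adjusted p = 0.578). Hist1h4c lay between 0.125 and 2.34 CPM in all libraries and did not pass in any of the 6 comparisons (edgeR adjusted p at least 0.3).

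Most H2b genes did not pass against splenic CD8. Of 11 tested, 2 were higher and 2 lower in iRTE than in splenic CD8, 3 and 3 in Artificial CD8 and 3 and 0 in CD4+CD8+, which leaves 7, 5 and 8 that did not pass. These shares lie near or under the background of all genes. Hist2h2be, the H2b gene of highest mean, had 0, 3.82, 0.620, 1.43 and 0.832 CPM in iRTE, 2.21, 3.58, 0.355, 1.07 and 3.30 CPM in Artificial CD8, 3.29, 4.52 and 3.73 CPM in CD4+CD8+ and 9.51, 7.36, 8.58, 4.65 and 6.03 CPM in splenic CD8. All splenic libraries lay above all cultured ones. Its log2 fold change was -2.42 ± 0.67 in iRTE (edgeR adjusted p = 0.00458), and -3.26 without iRTE 2. In Artificial CD8 it was -1.78 ± 0.64 (edgeR adjusted p = 0.0225), which no longer passed without splenic CD8 1, Artificial CD8 3 or Artificial CD8 4 (adjusted p 0.0522 to 0.055). The value of -0.91 ± 0.74 in CD4+CD8+ did not pass (edgeR adjusted p = 0.306). Hist1h2bc and Hist1h2be, next by mean, did not pass in any comparison.

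Hist3h2a, an H2a gene outside the large cluster, had 4.98, 3.82, 2.48, 1.87 and 5.18 CPM in iRTE, 2.51, 3.27, 1.18, 2.39 and 1.70 CPM in Artificial CD8, 2.94, 3.43 and 2.92 CPM in CD4+CD8+ and 8.43, 8.92, 6.89, 6.82 and 7.05 CPM in splenic CD8. The annotated exons of Hist3h2a overlap those of Trim17 on the same strand, and the part of this in its counts was not tested. Splenic libraries were highest without overlap. The log2 fold change was -1.06 ± 0.31 in iRTE (edgeR adjusted p = 0.00716), -1.78 ± 0.32 in Artificial CD8 (edgeR adjusted p = 8.39e-05) and -1.30 ± 0.38 in CD4+CD8+ (edgeR adjusted p = 0.00674, and 0.0975 with CD4+CD8+ 1 as the only CD4+CD8+ library). Hist3h2ba, an H2b gene of the same small cluster, had 0, 0.355, 0.266, 0.872 and 0.320 CPM in iRTE, 0.980, 0.925, 0.474, 0.559 and 0.928 CPM in Artificial CD8, 3.03, 2.43 and 3.73 CPM in CD4+CD8+ and 2.48, 1.98, 1.34, 3.02 and 2.46 CPM in splenic CD8. Here CD4+CD8+ overlapped splenic CD8, and both CD8+ cultured groups lay under both. Its log2 fold change against splenic CD8 was -2.56 ± 0.53 in iRTE (edgeR adjusted p = 0.000463) and -1.54 ± 0.50 in Artificial CD8 (edgeR adjusted p = 0.0118). In CD4+CD8+ it was 0.44 ± 0.54 (edgeR adjusted p = 0.504). Without iRTE 4 the iRTE value was -3.18.

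Hist2h2ac went the other way from Hist2h2be, its fellow member of the Hist2 cluster. Hist2h2ac had 5.84, 2.04, 3.45, 1.25 and 1.22 CPM in iRTE, 9.19, 7.77, 6.69, 8.28 and 6.496 CPM in Artificial CD8, 6.92, 3.10 and 4.37 CPM in CD4+CD8+ and 1.84, 1.56, 1.62, 1.75 and 2.12 CPM in splenic CD8. Artificial CD8 and CD4+CD8+ lay above splenic CD8, and iRTE lay on both sides of it. The log2 fold change was 2.11 ± 0.38 in Artificial CD8 (edgeR adjusted p = 0.000108), 1.43 ± 0.42 in CD4+CD8+ (edgeR adjusted p = 0.00793, and 0.069 without CD4+CD8+ 1) and 0.62 ± 0.38 in iRTE (edgeR adjusted p = 0.173). The remaining tested members of the smaller clusters, Hist2h4, Hist2h2bb and Hist4h4, lay at or below 2.21 CPM in every library. Hist2h2bb passed for Artificial CD8 against splenic CD8 with a log2 fold change of -3.18 ± 1.28 (edgeR adjusted p = 0.0382) and Hist4h4 for CD4+CD8+ against splenic CD8 with -2.45 ± 0.95 (edgeR adjusted p = 0.0359). The call of Hist2h2bb was lost without Artificial CD8 2, 3, 4 or 5 (adjusted p 0.0744 to 0.0773), and the value was -5.86 without Artificial CD8 1. That of Hist4h4 was lost without any of the 3 CD4+CD8+ libraries or without splenic CD8 4 or 5 (adjusted p 0.0558 to 0.125).

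The next comparison set the 2 kinds of cultured CD8+ cells against each other. Of the 42 tested histone genes, 10 were lower and 1 higher in iRTE than in Artificial CD8, and 31 did not pass. These are 23.8% and 2.38%, beside 18.7% lower and 20% higher among all genes tested, so the share that was lower lies near the background. The median log2 fold change was -0.64 for the 42 genes and 0.01 over all genes. The H4 sum and the total did not overlap between the groups, while the H1 and H2a sums overlapped through iRTE 5 and iRTE 3. Hist1h1b had a log2 fold change of -2.29 ± 0.29 (edgeR adjusted p = 6.3e-06), Hist1h1d of -1.83 ± 0.28 (edgeR adjusted p = 4.08e-05) and Hist1h1a of -2.80 ± 0.71 (edgeR adjusted p = 0.00421). Without iRTE 3 the change of Hist1h1a was -4.29. In contrast, Hist1h1e had a change of -0.06 ± 0.18 (edgeR adjusted p = 0.823). Of the 7 core genes that were lower, 4 were Hist1h4i (-2.26 ± 0.41, edgeR adjusted p = 0.000247), Hist1h4d (-1.40 ± 0.26, edgeR adjusted p = 0.000355), Hist1h2ab (-2.30 ± 0.45, edgeR adjusted p = 0.000465) and Hist2h2ac (-1.49 ± 0.38, edgeR adjusted p = 0.00401). The others were the H2a genes Hist1h2an and Hist1h2ao and the H2b gene Hist1h2bk, with changes of -2.0, -1.45 and -2.19 (edgeR adjusted p 0.0194 to 0.0381).

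Only Hist1h1c was called higher in iRTE than in Artificial CD8 (1.05 ± 0.41, edgeR adjusted p = 0.0499). Without iRTE 5 its change was 0.14 (adjusted p = 0.619), and the call was also lost without any 1 of the Artificial CD8 libraries (adjusted p 0.0619 to 0.102). Of the iRTE libraries, 1 to 3 carry descriptions of another style than 4 and 5, which may mark a difference in handling that the labels do not explain. With iRTE 1 to 3 alone, 8 genes were lower than in Artificial CD8 and 1 higher, and with iRTE 4 and 5 alone 19 were lower and 1 higher.

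iRTE and CD4+CD8+ differed in few histone genes. Of the 42, 1 was higher in iRTE (2.38%, beside 11.8% of all genes) and 2 were lower (4.76%, beside 12.3% of all genes), with a median log2 fold change of -0.26 against 0.02 over all genes. Hist1h1e was higher in iRTE by 1.04 ± 0.22 on the log2 scale (edgeR adjusted p = 0.00215), in 5 of 5 iRTE libraries above every CD4+CD8+ library. It did not pass in a fit of the 2 groups alone (edgeR adjusted p = 0.057) or with CD4+CD8+ 1 as the only CD4+CD8+ library (edgeR adjusted p = 0.128). Hist3h2ba was lower (-2.99 ± 0.58, edgeR adjusted p = 0.000895), and so was Hist1h4i (-2.13 ± 0.45, edgeR adjusted p = 0.0018, and 0.0542 in the fit of the 2 groups alone). Without iRTE 4 the change of Hist3h2ba was -3.62, and 3 genes were higher in iRTE. The count of lower genes was 4 without iRTE 1 and 5 without iRTE 3. Each of these 3 genes separated the groups without overlap. With iRTE 4 and 5 alone 13 genes were lower, and by limma-voom 10.

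Between Artificial CD8 and CD4+CD8+ few histone genes passed, at shares near or under the background. Of the 42, 4 were higher in Artificial CD8 (9.52%, beside 6.54% of all genes) and 1 was lower (2.38%, beside 8.12% of all genes). Hist1h1b was higher by 1.42 ± 0.34 (edgeR adjusted p = 0.00854), Hist1h1d by 1.59 ± 0.33 (edgeR adjusted p = 0.00357), Hist1h1e by 1.10 ± 0.22 (edgeR adjusted p = 0.00288) and Hist1h4d by 1.03 ± 0.31 (edgeR adjusted p = 0.0324) on the log2 scale. Hist3h2ba was the gene that was lower (-1.98 ± 0.55, edgeR adjusted p = 0.0209). Its call was lost without CD4+CD8+ 1, CD4+CD8+ 3 or Artificial CD8 3 (adjusted p 0.0506 to 0.081), and that of Hist1h4d without CD4+CD8+ 2, CD4+CD8+ 3 or Artificial CD8 1, 2, 4 or 5 (adjusted p 0.0524 to 0.141). The H1 sum was 118 to 173 CPM in Artificial CD8 and 56.8 to 76.3 CPM in CD4+CD8+, without overlap. The H4 sum was 93.4 to 126 CPM in Artificial CD8 and 45.5 to 86.9 CPM in CD4+CD8+, also without overlap, while the H2a, H2b and H3 sums overlapped. With CD4+CD8+ 1 as the only CD4+CD8+ library, the one with few stromal counts, a setting chosen after seeing the data, 0 genes were called in either direction and the changes were 1.26, 1.35, 0.94, 0.49 and -1.95 in the same order.

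Histone RNA was set beside other genes of the cell cycle. The 30 S phase genes summed to 3655 CPM on average in iRTE (1724 to 4313), 7573 in Artificial CD8 (6782 to 8167), 5639 in CD4+CD8+ (5382 to 5776) and 1442 in splenic CD8 (1382 to 1490). The histone sum equalled 4.69% ± 0.932 of the S phase sum in iRTE, 4.95% ± 0.444 in Artificial CD8, 3.94% ± 1.24 in CD4+CD8+ and 3.80% ± 0.204 in splenic CD8. Library iRTE 4, with 4.14%, lay within the 3.63% to 6.01% of its group. The ratio overlapped between all groups, except that every Artificial CD8 library, at 4.18% to 5.30%, lay above every splenic one, at 3.57% to 4.10%. Its histone sum includes the Hist2 to Hist4 clusters, which gave 36.6% to 44.2% in splenic CD8 and at most 11% in any cultured library. The Hist1 cluster alone averaged 163 CPM in iRTE, 362 in Artificial CD8, 204 in CD4+CD8+ and 32.6 in splenic CD8. Relative to the S phase sum, Hist1 lay lower in every splenic library than in every cultured one, so the overlap holds for the mixed sum only. In iRTE 4, Hist1 summed to 63.6 CPM beside 1724 CPM of S phase genes. In splenic CD8 it summed to 28.8 to 36.5 CPM beside 1382 to 1490 CPM. Against splenic CD8, 28 of the 30 S phase genes were higher in iRTE, 30 in Artificial CD8 and 30 in CD4+CD8+. Among all genes tested these shares were 29.2%, 30.3% and 28.9%. Between iRTE and Artificial CD8, 26 of the 30 S phase genes were lower in iRTE, beside 18.7% of all genes tested. By their means, the histone sum and the S phase sum gave the groups the same order, with Artificial CD8 highest, then CD4+CD8+, iRTE and splenic CD8. The part of cell division in the histone values was not tested.

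**Figure D5:**
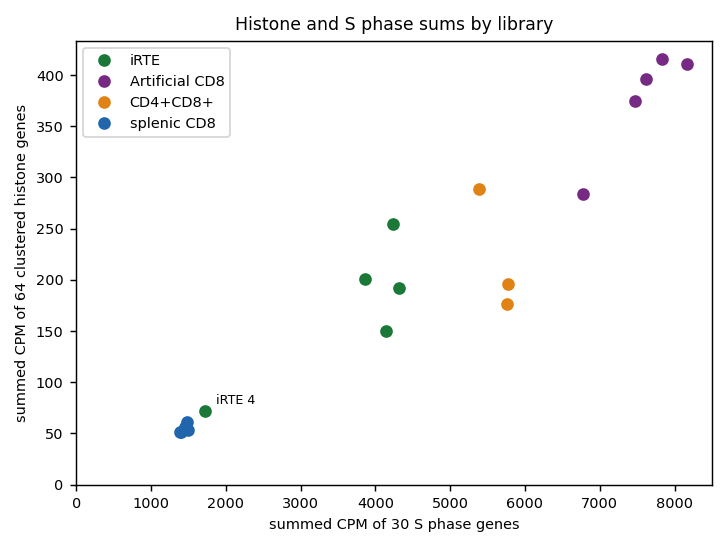
Summed CPM of the 64 clustered histone genes against summed CPM of 30 S phase genes, 1 point per library, linear axes from 0. iRTE 4, at 71.4 and 1724 CPM, lies beside the 5 splenic CD8 libraries and apart from the other iRTE libraries.

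Replacement histones are made outside S phase from polyadenylated mRNA. Of 9 tested, 8 were higher in iRTE than in splenic CD8, 7 in Artificial CD8 and 7 in CD4+CD8+, with median log2 fold changes of 1.31, 0.74 and 0.92. Among all genes tested, 29.2%, 30.3% and 28.9% were higher in the same order. H2afz, which encodes H2A.Z, averaged 414 ± 95.8 CPM in iRTE, 946 ± 85.9 in Artificial CD8, 810 ± 213 in CD4+CD8+ and 166 ± 11.2 in splenic CD8. It was lower in iRTE than in Artificial CD8 (-1.19 ± 0.15, edgeR adjusted p = 6e-06). H3f3a, an H3.3 gene, averaged 500 ± 38.6 CPM in iRTE and 489 ± 24.7 in Artificial CD8 (0.03 ± 0.10, edgeR adjusted p = 0.837), against 327 ± 17.2 in splenic CD8. H1f0, the replacement linker histone, had 8.15, 8.26, 1.504, 10.6 and 59.5 CPM in iRTE 1 to 5, with iRTE 5 high as for Hist1h1c, with a mean of 17.6 ± 23.7 CPM; it averaged 6.25 ± 1.62 CPM in Artificial CD8, 12.5 ± 5.00 in CD4+CD8+ and 6.72 ± 0.869 in splenic CD8.

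Of 14 genes for histone transcription and 3′ processing, 5 were higher and 4 lower in iRTE than in splenic CD8, 6 and 1 in Artificial CD8 and 7 and 2 in CD4+CD8+. Among all genes tested, 29.2%, 30.3% and 28.9% were higher and 29%, 30.2% and 27.4% lower in the same order. Whether the counts of this list depart from these shares was not tested. Slbp averaged 237 ± 39.2 CPM in iRTE, 291 ± 25.6 in Artificial CD8, 278 ± 31.9 in CD4+CD8+ and 123 ± 10.3 in splenic CD8, with log2 fold changes against splenic CD8 of 0.95, 1.25 and 1.18 (edgeR adjusted p at most 1.65e-06). Npat, the coactivator of histone gene transcription, lay at 57.9 ± 14.2 CPM in iRTE, 69.2 ± 12.1 in Artificial CD8, 67.8 ± 14.9 in CD4+CD8+ and 69.6 ± 4.99 in splenic CD8 and did not pass in any of the 6 comparisons (edgeR adjusted p at least 0.175). Of 16 histone chaperones, which carry histones to DNA, 6 were higher and 2 lower in iRTE than in splenic CD8, 11 and 3 in Artificial CD8 and 11 and 2 in CD4+CD8+. These counts stand beside the same shares among all genes, and a departure from them was not tested either. Chaf1b, a subunit of the complex that loads H3 and H4 behind the replication fork, changed by 1.18, 2.06 and 2.00 (edgeR adjusted p at most 3.52e-07). Daxx, a chaperone of H3.3, was lower in all 3 cultured groups, by log2 fold changes of -0.51, -1.04 and -0.91 (edgeR adjusted p at most 8.27e-05).

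Core histone genes of one class resemble each other, and how the authors treated reads that fit several places is not given in the sources used here. In GENCODE transcripts, the median share of 50-base windows also found in another gene was 58% for the 11 tested H2a genes, 43.8% for H2b, 54.1% for H3 and 14.9% for H4. For linker H1 it was 0% in Hist1h1a and Hist1h1b, 2.25% in Hist1h1d, 8.54% in Hist1h1c and 32% in Hist1h1e, whose annotated exons overlap those of Hist1h2be on the same strand. Among tested core genes the share was at most 10.2% in Hist2h2be, Hist2h4, Hist4h4 and Hist1h4d, and at least 14.1% in the others. Values of single genes such as Hist1h3i (87.6%), Hist1h3e (73.4%) and Hist1h2ab (58%) may be split among copies. A split within a class leaves its sum as it is, but if reads that fit several places were dropped, the class sums would be too low as well, and this was not tested.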

How the data were processed

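Each library came with deposited counts of reads by gene symbol. STAR 2.4.2, Subread and build mm9 are named in the submitters' processing notes. Per the file headers, the alignments were sorted and duplicates marked. As to annotation release, strand setting and multiply mapped reads, the choice is not given in the sources used here. The deposited table of log2 values, for which those notes name edgeR, served only as a check: over 17765 genes it differed from TMM log2 CPM by at most 0.026.

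The histone genes and all gene lists were chosen with earlier results of these data known. Counts were filtered with filterByExpr, scaled by TMM and fitted in edgeR 4.0.16 (R 4.3.3) with robust quasi-likelihood dispersions, all 18 libraries together and a coefficient per group. Fold changes are of the first group over the second, and p-values were adjusted by Benjamini-Hochberg over 13922 genes with a threshold of 0.05. Class sums add TMM-scaled CPM over all 64 genes and carry no test. A floor of 3 counts, 0.152 to 0.287 CPM per library, covers counting error only. Replicates differed by more than counting error (chi-square per degree of freedom at least 4.67). The pipeline was tested on simulated data. DESeq2 1.42.0 and limma 3.58.1 served as alternatives, beside other scalings, filters and sets of libraries.

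Named histone genes are the linker H1 genes, the 3 of highest mean in each core class, those tested of the Hist2 to Hist4 clusters, and up to 3 of smallest adjusted p in the rarer direction of each comparison. Of the other lists, the 2 called genes of smallest adjusted p in each direction and comparison could be named, besides H2afz, H2afx, H3f3a, H3f3b, H1f0, H1fx, Slbp and Npat. Hist1h3g, Hist1h4h, Hist1h2bg, Hist1h2an, Hist1h2ao and Hist1h2bk were named after their values were seen. Promoters came from RefSeq (GRCm38.p6), which is not the authors' build, and shared windows from GENCODE transcripts.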

Additional observations from a re-analysis of the deposited data

Results flagged for a closer look

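In groups of 5 libraries, 93 sets of values were screened for 1 library far from the other 4, and 7 stood out by Dixon's criterion. Chance alone gives about 1 in 20. Hist1h1c had 50.6 CPM in iRTE 5, against 7.72 to 12.1 CPM in the other iRTE libraries. Hist1h1a had 4.25 CPM in iRTE 3, against 0.187 to 0.575 CPM in the others, and Hist1h2ae had 48.0 CPM in the same library, against 2.49 to 15.3 CPM. Hist1h2be had 4.50 CPM in iRTE 1, against 1.06 to 2.04 CPM. The core histone sum was 166 CPM in Artificial CD8 3, against 226 to 242 CPM in the other Artificial CD8 libraries. It was 46.3 CPM in splenic CD8 1, against 39.6 to 41.6 CPM in the other splenic libraries. Hist2h2bb had 0.245 CPM in Artificial CD8 1 and no count in the others. What set these libraries apart was not tested.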

How the results depend on the processing

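Among 58 log2 fold changes of called genes, 1051 recalculations gave 0 changes of sign, 995 that still passed and 56 that did not. Settings in which a gene was not tested gave no value and are not in this tally. With CPM above 5 in at least 3 libraries, 45 of the 58 were tested. Of the 995 and 56, 507 and 29 came from leaving out 1 library. Counts of genes past the threshold moved more. With CPM above 5 in at least 3 libraries, which leaves fewer genes to test, the higher and lower counts against splenic CD8 were 8 and 2 (iRTE), 9 and 2 (Artificial CD8) and 9 and 1 (CD4+CD8+); 1 was lower in iRTE than in CD4+CD8+ and 0 in Artificial CD8 than in CD4+CD8+. For iRTE against Artificial CD8, the single higher call became 0 with RLE factors, total counts, no filter, limma-voom and the fit of the 2 groups alone, and the lower calls became 18 by limma-voom and 19 with iRTE 4 and 5 only. For iRTE against splenic CD8, the higher calls became 14 by limma-voom, 7 in the fit of the 2 groups alone and 11 with iRTE 4 and 5 only. For CD4+CD8+ against splenic CD8, the lower calls became 1 with no filter and by limma-voom, and 0 with CD4+CD8+ 1 alone. For iRTE against CD4+CD8+, the lower calls became 10 by limma-voom, 1 in the fit of the 2 groups alone and 13 with iRTE 4 and 5 only. There the higher calls became 0 in the fit of the 2 groups alone and with CD4+CD8+ 1 alone, and 2 with iRTE 1 to 3 or 4 and 5 only. For Artificial CD8 against CD4+CD8+, both counts became 0 with CD4+CD8+ 1 alone, a setting chosen after seeing the data, in which the lone library is assumed to vary like the other groups. The cause of these changes was not tested.

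Leaving out 1 library at a time gave, for higher and lower counts, 0 to 2 and 8 to 13 (iRTE against Artificial CD8), 17 to 29 and 3 to 3 (iRTE against splenic CD8), 23 to 27 and 2 to 4 (Artificial CD8 against splenic CD8), 20 to 23 and 1 to 2 (CD4+CD8+ against splenic CD8), 1 to 3 and 2 to 5 (iRTE against CD4+CD8+), and 3 to 4 and 0 to 1 (Artificial CD8 against CD4+CD8+).

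Replicate numbers are shared between groups, but same-numbered libraries did not deviate together, with correlations from -0.0663 to 0.0587 over 24 pairs. They share only a number. With the number as a replicate block, iRTE against Artificial CD8 had 0 higher calls and CD4+CD8+ against splenic CD8 had 1 lower call, and the other 10 counts stayed within 1.5 times.

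The class sums moved by less than 1 SD on total counts and when any library was left out. Without its highest gene each, H1 averaged 68.2 CPM in Artificial CD8, 33.0 in CD4+CD8+ and 11.3 in splenic CD8, and H2a averaged 45.9, 28.1 and 11.3 in these groups. H2b averaged 14.3 in CD4+CD8+ and 7.67 in splenic CD8. H4 averaged 6.83 in iRTE, 14.9 in Artificial CD8, 12.7 in CD4+CD8+ and 6.40 in splenic CD8.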
